A study of Homo sapiens with 6 samples.

Results

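Interferon-stimulated genes are transcribed when a cell detects interferon, and 49 of them, out of 58735 rows of the gene table, were followed here in pancreatic cancer cells. The members were taken by gene symbol from a list of well-known interferon-induced genes, and the rule itself uses no expression value. The list was nonetheless chosen with earlier results of these data known, so shares of members beside all genes are descriptions. RNA-seq was done on 6 libraries of wild-type PANC-1, an established cell line from a human pancreatic ductal adenocarcinoma (PDAC). In 3 libraries, labelled CM-MLKL, the cells had been exposed to conditioned medium (CM) from macrophages co-cultured with PANC-1 cells that overexpressed MLKL, the protein that ruptures the membrane in necroptosis. In the other 3, labelled CM-Vector, the macrophages had been co-cultured with PANC-1 cells carrying the empty vector. The sequenced cells carried neither construct, and both groups received macrophage-conditioned medium, so neither is untreated. The 72 h named for the experiment is, per the methods, the duration of the co-culture. Per the study's methods the macrophages were derived from THP-1, a monocytic leukaemia line, and medium from MLKL co-cultures was concentrated on filters, with no such step stated for the other medium.

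Interferons reach cells through surface receptors. Type I and type III interferons activate the kinases JAK1 and TYK2, and a complex that contains the transcription factors STAT2 and IRF9 then binds the interferon-stimulated response element in promoters. Interferon gamma instead acts through gamma-activated sites. Cells make interferon when sensors such as RIG-I, MDA5 or cGAS meet foreign or misplaced nucleic acid, and many of the induced genes encode antiviral proteins, further sensors or chemokines.

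Response element letters stood in most member promoters, and 6 promoters are shown because their genes cover the patterns described here. IFIT1 was the most abundant IFIT gene, IFIT3 and SAMD9 were among the members that varied most between the CM-Vector libraries, DDX60 and IFI27 had groups that did not overlap and were each called in a fit, and ISG15 had the highest level per length. RefSeq promoters (GRCh38.p14, 250 bases before to 50 bases after the gene start) were found for 40 of the 49 members. The letters GAAANNGAAA, on either strand, occurred in 27 of those 40 promoters (67.5%), against 3.57% of 35116 RefSeq promoters of the same length. The letters TTCNNNGAA, the core of a gamma-activated site, occurred in 11 of 40 (27.5%), against 7.66% of all promoters, and overlapped the response element letters in 3 of those 11. The sequences run 5′ to 3′ on the strand of the gene, with the response element letters in capitals and all other bases in lower case. They lie at chr10:89392373-89392672 on the plus strand for IFIT1, chr10:89327747-89328046 on the plus strand for IFIT3, chr7:93117930-93118229 on the minus strand for SAMD9, chr4:168318703-168319002 on the minus strand for DDX60, chr14:94110486-94110785 on the plus strand for IFI27 and chr1:1013247-1013546 on the plus strand for ISG15.
IFIT1: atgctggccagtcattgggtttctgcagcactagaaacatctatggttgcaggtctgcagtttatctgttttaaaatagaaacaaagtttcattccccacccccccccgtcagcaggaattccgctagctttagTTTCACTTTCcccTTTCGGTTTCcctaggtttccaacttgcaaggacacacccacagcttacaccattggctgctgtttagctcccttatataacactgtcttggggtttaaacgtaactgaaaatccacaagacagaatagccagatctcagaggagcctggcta
IFIT3: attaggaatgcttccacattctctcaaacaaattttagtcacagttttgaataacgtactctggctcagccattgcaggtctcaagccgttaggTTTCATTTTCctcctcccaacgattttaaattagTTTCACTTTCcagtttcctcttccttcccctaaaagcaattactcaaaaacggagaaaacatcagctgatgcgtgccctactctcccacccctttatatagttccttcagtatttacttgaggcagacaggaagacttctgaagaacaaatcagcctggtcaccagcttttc
SAMD9: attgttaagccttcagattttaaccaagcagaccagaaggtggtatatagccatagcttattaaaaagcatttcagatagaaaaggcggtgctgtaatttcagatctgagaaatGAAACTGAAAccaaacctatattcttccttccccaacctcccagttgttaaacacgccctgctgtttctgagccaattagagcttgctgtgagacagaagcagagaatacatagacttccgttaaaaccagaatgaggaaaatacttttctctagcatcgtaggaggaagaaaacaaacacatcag
DDX60: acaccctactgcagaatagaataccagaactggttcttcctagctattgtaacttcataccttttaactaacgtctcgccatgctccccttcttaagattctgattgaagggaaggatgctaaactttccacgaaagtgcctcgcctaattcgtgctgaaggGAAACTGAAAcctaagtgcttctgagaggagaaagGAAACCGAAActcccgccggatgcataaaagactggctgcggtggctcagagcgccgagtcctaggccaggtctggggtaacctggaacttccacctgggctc
IFI27: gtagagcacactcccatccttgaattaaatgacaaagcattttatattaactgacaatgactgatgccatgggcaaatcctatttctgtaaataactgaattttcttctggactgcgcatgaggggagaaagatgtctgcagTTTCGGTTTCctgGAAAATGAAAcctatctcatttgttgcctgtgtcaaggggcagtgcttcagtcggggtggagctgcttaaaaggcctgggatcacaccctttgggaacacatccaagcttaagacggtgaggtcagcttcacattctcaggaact
ISG15: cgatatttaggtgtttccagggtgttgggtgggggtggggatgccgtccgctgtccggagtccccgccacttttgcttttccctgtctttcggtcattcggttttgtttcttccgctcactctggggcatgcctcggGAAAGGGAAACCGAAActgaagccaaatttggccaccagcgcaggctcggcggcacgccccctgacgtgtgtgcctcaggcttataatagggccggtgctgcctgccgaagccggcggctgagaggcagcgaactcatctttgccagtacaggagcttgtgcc

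**Figure D1:**
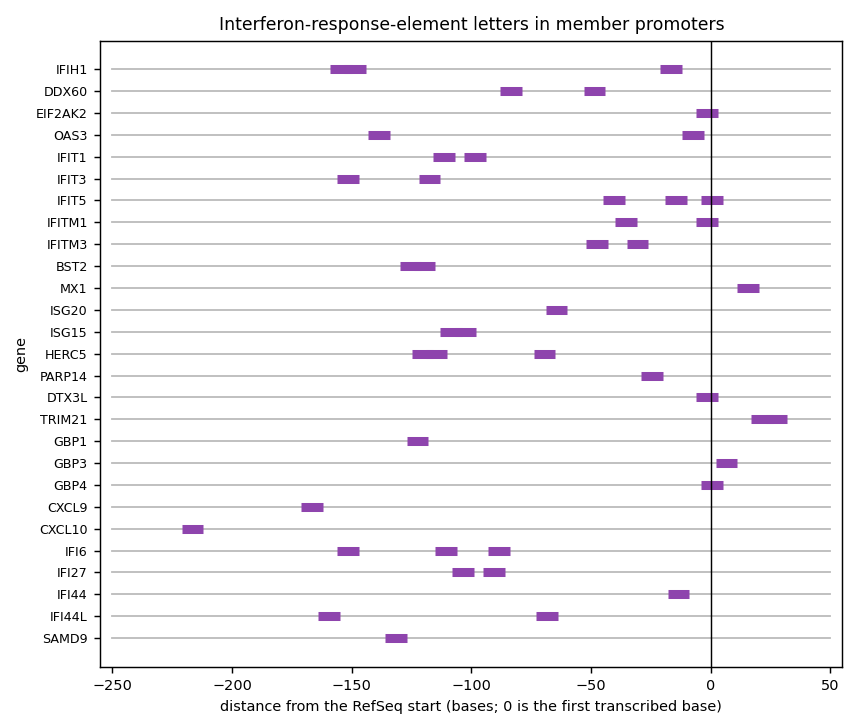
Position of the letters GAAANNGAAA (purple bars, either strand) in the 27 member promoters that hold them. The x axis is the distance in bases from the RefSeq start and the grey lines span each promoter, and most bars lie upstream of the start.

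The letters in capitals read TTTC first where the element lies on the other strand, as in IFIT1 and IFIT3. In the ISG15 promoter a pair of matches shares bases and reads as a single run. Of the members that were tested for expression and matched to a promoter, 12 of 16 (75.0%) whose level in CM-Vector replicate 1 was at least 2-fold above the other CM-Vector libraries held the letters, as did 12 of 19 (63.2%) of those below that fold. A match describes these letters in this window and does not show that the site is used.

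Total counts were 17124158, 15838403 and 17809132 in CM-MLKL replicates 1, 2 and 3, and 17672699, 17885429 and 17083975 in CM-Vector replicates 1, 2 and 3. A library with no count for a gene allows up to 3 counts, which is 0.168 to 0.189 CPM (counts scaled to the size of the library) depending on the library, for counting error only. CM-Vector replicate 1 stood apart from the other 5 libraries. The first principal component of log2 CPM held 48.6% of the variance and separated it, and its Pearson's r with CM-Vector replicates 2 and 3 was 0.923 and 0.922, against 0.988 between those replicates. With CM-MLKL replicates 1, 2 and 3 its r was 0.946, 0.919 and 0.946. Among the CM-MLKL libraries r was 0.973 for replicates 1 and 2, 0.986 for 1 and 3 and 0.961 for 2 and 3. All are correlations over genes, and genes are not replicates. CM-Vector replicate 1 also had the largest scaling factor (1.16, against 0.926 to 1.03 in the others) and the most genes with a count (21805, against 19458 to 20875). MLKL itself, which the sequenced cells did not overexpress, measured 5.91, 3.37 and 6.07 CPM in the CM-MLKL libraries, against 12.6, 3.44 and 2.70 CPM in the CM-Vector libraries (edgeR adjusted p = 0.999). The keratins KRT8, KRT18 and KRT19 and vimentin were present in every library. They belong to a list of 8 markers of PANC-1 epithelial tumour cells, of which 7 were high enough to test. Of the 7, 1 had a log2 fold change above 0, against 44.5% of all genes. The median was -0.70, and edgeR called 0 in either direction, against 0.406% of all genes higher and 0.107% lower. Of 18 macrophage markers, PTPRC, MRC1, CD86 and C1QA were at 0 in all libraries and 4 were high enough to test. The summed level of the 18 was 21.8 to 26.0 CPM in the CM-MLKL libraries and 15.2 to 19.3 CPM in the CM-Vector libraries. LAPTM5, a lysosomal protein of blood cells, made up most of the sum in the CM-MLKL libraries and a smaller share in the CM-Vector libraries. LAPTM5 measured 16, 18.4 and 16.6 CPM in the CM-MLKL libraries, against 9.98, 7.18 and 8.6 CPM in the CM-Vector libraries, with every CM-MLKL library above every CM-Vector library and a log2 fold change of 0.98 ± 0.28 (SE, edgeR adjusted p = 0.293), and 1.13 ± 0.24 (SE, edgeR adjusted p = 0.0401) without CM-Vector replicate 1. Of the 4 macrophage markers tested, 2 had a fold change above 0 with all libraries, against 44.5% of all genes. Without CM-Vector replicate 1 it was also 2 of 4, against 54.9%. Their median log2 fold change was -0.25 in both fits. The part of these markers in the results was not tested.

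Of the 49 members, 43 had enough counts to be tested. TRIM22, GBP1, CXCL9, IFI16, IFI44L and XAF1 did not. Levels are library-scaled CPM, and values of a group are listed in the order of replicates 1, 2 and 3. Since the labels do not name separate cultures, although the methods describe independent experiments, p-values measure the spread between these libraries. In bulk RNA, fewer cells expressing a gene and less of its RNA per cell cannot be told apart.

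The comparison asked whether medium from co-cultures with MLKL-overexpressing cells was followed by a different level of interferon-stimulated transcripts than medium from vector co-cultures. No member differed between the groups in the edgeR quasi-likelihood test at a Benjamini-Hochberg adjusted p under 0.05: 0 of 43 were called higher, where 0.406% of all 14046 genes tested were, and 0 were called lower, where 0.107% were. The smallest adjusted p among members was 0.225, for IFI27. At an unadjusted p under 0.05, DDX60 was higher (1 of 43, against 3.24% of all genes) and IFIT2, GBP2 and IFI27 were lower (3 of 43, against 2.98%). limma-voom called 0 higher and 0 lower, against 0.42% and 0.0997% of all genes. DESeq2 called 0 higher, against 0.997%, and 1 lower, IFI27, against 0.477%. With no filter on low counts edgeR called 0 of the 43 higher, against 0.561% of genes, and 2 lower, IFIT2 and IFIT3, against 0.376%. Among the 34 members with at least 5 CPM in 3 libraries it called 0 in either direction, against 0.458% higher and 0.109% lower.

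Fold changes ran from -2.42 for IFIT2 to 0.84 for DDX60 on the log2 scale, with a median of -0.26 over the members and -0.043 over all genes. 13 of 43 members (30.2%) had a fold change above 0, against 44.5% of all genes. Standard errors of the members ranged from 0.23 to 0.97, with a median of 0.40 against 0.34 over all genes. The CM-MLKL and CM-Vector libraries did not overlap in 5 of 43 members (11.6%), against 11.9% of all genes. CM-MLKL was the higher group in IRF1 and DDX60 (2 of 43, against 6.43% of genes) and the lower one in OAS1, GBP2 and IFI27 (3 of 43, against 5.5%).

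The spread came largely from CM-Vector replicate 1. This library was the highest of the 6 in 28 of 43 members (65.1%), against 32.4% of all genes tested. It was at least 2-fold above the mean of CM-Vector replicates 2 and 3 in 19 members (44.2%, against 16% of genes) and at least 10-fold above it in IFIT2, IFIT3, CXCL11 and SAMD9 (4 of 43, against 0.285%). It was at or below 0.5 of that mean in IRF9, IFITM2 and BST2 (3 of 43, against 12.3%). The median ratio of replicate 1 to the other CM-Vector libraries was 1.78 over the members and 1.03 over all genes.

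**Figure D2:**
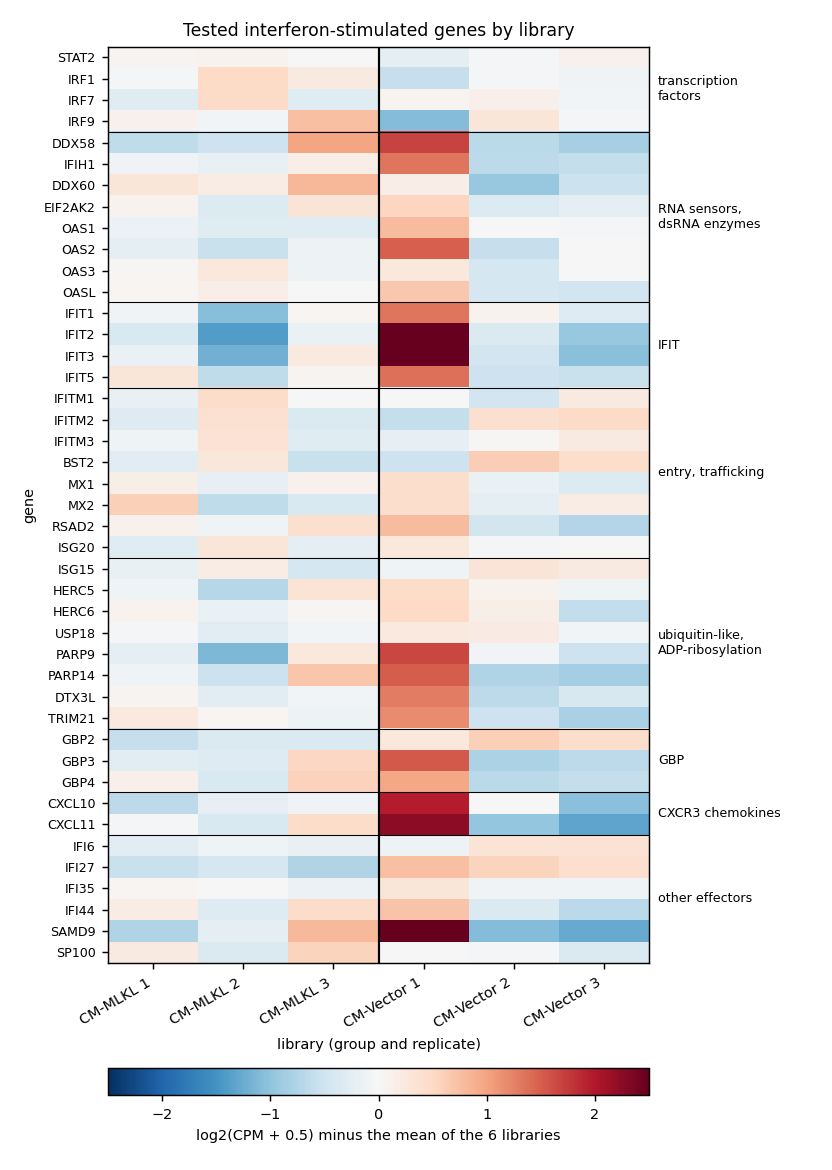
Level of the 43 tested members in each library, as log2(CPM + 0.5) minus the gene's mean over the 6 libraries, with CM-MLKL libraries left of the line and CM-Vector libraries right of it. Colours end at 2.5, a value that IFIT2, IFIT3 and SAMD9 exceed in CM-Vector replicate 1, the library that was highest in 28 members.

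Without that library the balance of directions was different. In an edgeR fit of the 3 CM-MLKL libraries and CM-Vector replicates 2 and 3, 32 of 43 members (74.4%) had a fold change above 0, against 54.9% of all genes, and the median was 0.25 against 0.051 over all genes. DDX60 was the only member called higher (1 of 43, against 1.44% of genes) and 0 were called lower, against 0.755%. Of the 4 macrophage markers tested in that fit, LAPTM5 was the only one called, as higher, and 2 of the 4 had a fold change above 0. At an unadjusted p under 0.05, 11 members were higher (25.6%, against 8.08% of genes): IFIH1, DDX60, OASL, RSAD2, PARP14, TRIM21, GBP3, GBP4, CXCL11, IFI44 and SAMD9. BST2, GBP2, IFI6 and IFI27 were lower (4 of 43, against 6.94%). All CM-MLKL libraries lay above both remaining CM-Vector libraries in 14 members (32.6%, against 15.9% of genes) and below both in 7 (16.3%, against 17.5%). In 12 members (27.9%, against 5.91% of genes) both patterns held, with CM-Vector replicate 1 at least 2-fold up and every CM-MLKL library above CM-Vector replicates 2 and 3. Median standard errors of the members were 0.28 in that fit.

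**Figure D3:**
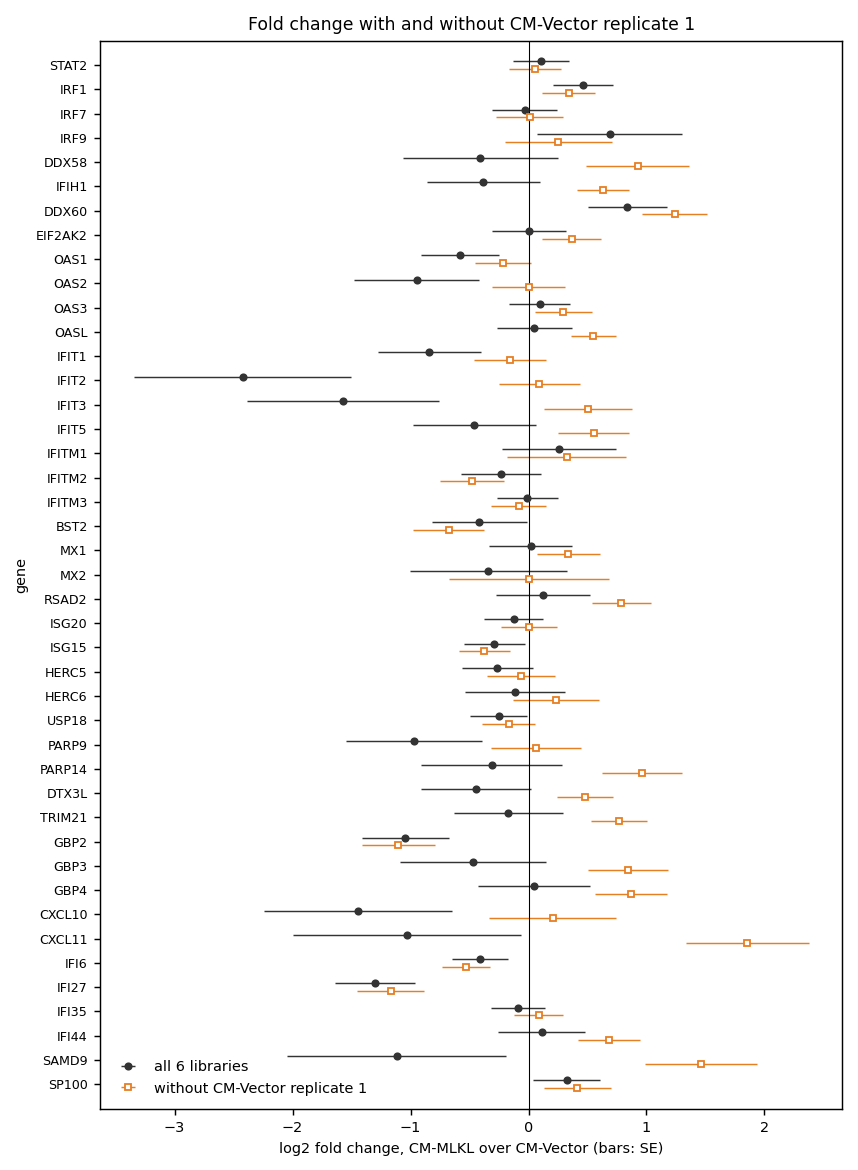
Log2 fold change (CM-MLKL over CM-Vector) of the 43 tested members with its SE, over all 6 libraries (filled circles) and without CM-Vector replicate 1 (open squares). Fold changes above 0 numbered 13 with all libraries and 32 without that one.

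Among the transcription factors of the pathway, none of the 4 members was called. IRF1, which interferon gamma induces and which activates many of the other members, measured 249.7, 362 and 299 CPM in the CM-MLKL libraries, against 172, 248 and 241 CPM in the CM-Vector libraries. Each CM-MLKL library was above each CM-Vector library, though by little for the closest pair, and the log2 fold change was 0.46 ± 0.25 (SE, edgeR adjusted p = 0.944). IRF7, the amplifier of interferon alpha transcription, measured 41.3, 71.3 and 41.4 CPM in the CM-MLKL libraries, against 53.5, 55.6 and 48.5 CPM in the CM-Vector libraries, with CM-MLKL replicate 2 highest and the groups overlapping. STAT2, a transcription factor of the response to type I and type III interferons, overlapped between the groups, with 30.8, 30.8 and 29.3 CPM in CM-MLKL and 24.9, 28.2 and 31.3 CPM in CM-Vector libraries. IRF9, the DNA-binding partner of STAT2, was low at 1.21, 1.01 and 2.13 CPM in CM-MLKL and 0.245, 1.45 and 1.04 CPM in CM-Vector libraries, with CM-Vector replicate 1 lowest. The locus of IRF1 (chr5:132481609-132490798, GENCODE 29 on GRCh38) overlaps C5orf56 on the opposite strand. The methods state no step that marks strand, so their shared reads may not be told apart.

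The sensors of viral RNA gave the only member called higher in any fit. DDX60, a helicase that promotes RIG-I signalling (chr4:168216293-168318807, minus strand), measured 38.1, 34.9 and 54.6 CPM in the CM-MLKL libraries, against 34.6, 15.8 and 20.9 CPM in the CM-Vector libraries. All CM-MLKL libraries lay above all CM-Vector libraries, the nearest pair by a small margin. The means were 42.5 ± 10.6 CPM in the CM-MLKL libraries and 23.8 ± 9.73 CPM in the CM-Vector libraries (SD, n = 3 each), and the log2 fold change was 0.84 ± 0.33 (SE, edgeR adjusted p = 0.657). Without CM-Vector replicate 1 it was 1.24 ± 0.28 (SE, edgeR adjusted p = 0.0496), a call that rested on leaving out that library. Over all fits the adjusted p of DDX60 ran from 0.0496 to 1.

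DDX58, which encodes RIG-I, measured 84.4, 90.7 and 259 CPM in the CM-MLKL libraries, against 422, 81.9 and 72.9 CPM in the CM-Vector libraries. Its high values were in CM-MLKL replicate 3 and, higher still, CM-Vector replicate 1, and the other 4 libraries lay close together. The log2 fold change was -0.41 ± 0.66 (SE, edgeR adjusted p = 0.999) and, without CM-Vector replicate 1, 0.92 ± 0.43 (SE, edgeR adjusted p = 0.355). IFIH1, which encodes MDA5, measured 79.5, 73.6 and 94.7 CPM in the CM-MLKL libraries, against 214, 52.9 and 55.8 CPM in the CM-Vector libraries, also with CM-Vector replicate 1 highest and the other CM-Vector libraries below all CM-MLKL ones. EIF2AK2, the kinase PKR that halts translation on double-stranded RNA, had a log2 fold change of 0.0029, with 36.4, 26.9 and 42.8 CPM in CM-MLKL and 49.9, 26.9 and 29.1 CPM in CM-Vector libraries.

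The oligoadenylate synthetases make a second messenger that activates RNase L, and OASL, a relative without that activity, supports RIG-I. OASL measured 535, 587 and 524 CPM in the CM-MLKL libraries, against 826, 391 and 374 CPM in the CM-Vector libraries. The CM-MLKL libraries lay together between CM-Vector replicate 1 above and replicates 2 and 3 below. Its log2 fold change was 0.049 ± 0.32 (SE, edgeR adjusted p = 0.999), and 0.55 ± 0.19 (SE, edgeR adjusted p = 0.205) without that library. OAS1 measured 8.72, 7.81 and 7.77 CPM in the CM-MLKL libraries, against 17.1, 9.72 and 9.46 CPM in the CM-Vector libraries, with each CM-MLKL library below each CM-Vector library and a log2 fold change of -0.58 ± 0.33 (SE, edgeR adjusted p = 0.959). OAS2 gave 4.25, 3.3 and 4.65 CPM in CM-MLKL and 15.2, 3.26 and 5.04 CPM in CM-Vector libraries and OAS3 54.5, 63.7 and 48.6 CPM in CM-MLKL and 63.8, 39.3 and 53.2 CPM in CM-Vector libraries, with overlapping groups in both.

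The IFIT proteins bind the 5′ end of viral RNA and block its translation, and the 4 genes among the members lie on chromosome 10, between 89283694 and 89421001. IFIT2 (chr10:89283694-89309276) measured 81.8, 40.2 and 96.3 CPM in the CM-MLKL libraries, against 1033, 83.5 and 55.6 CPM in the CM-Vector libraries. CM-Vector replicate 1 was 14.9 times the mean of the other CM-Vector libraries, which lay within the range of the CM-MLKL ones. Its log2 fold change was -2.42 ± 0.92 (SE, edgeR adjusted p = 0.603) with all libraries and 0.093 ± 0.34 (SE, edgeR adjusted p = 0.933) without CM-Vector replicate 1. IFIT3 (chr10:89327894-89340971) measured 82.4, 39.5 and 109 CPM in the CM-MLKL libraries, against 578, 65.9 and 44.5 CPM in the CM-Vector libraries. Here too the library that stood out was CM-Vector replicate 1, at 10.5 times the others, and CM-MLKL replicate 2 was the lowest of all. The log2 fold change of IFIT3 was -1.57 ± 0.81 (SE, edgeR adjusted p = 0.911) with all libraries and 0.51 ± 0.37 (SE, edgeR adjusted p = 0.585) without that one.

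IFIT2 and IFIT3 were called lower only with no filter on low counts, at edgeR adjusted p of 1.43e-11 and 8.49e-05, and in the other fits their adjusted p reached 1. IFIT2 overlaps LIPA on the opposite strand. IFIT1 measured 465, 238 and 515 CPM in the CM-MLKL libraries, against 1258, 524 and 398 CPM in the CM-Vector libraries. It too was highest in CM-Vector replicate 1, 2.73-fold above the others of its group, and lowest in CM-MLKL replicate 2, and its log2 fold change was -0.84 ± 0.44 (SE, edgeR adjusted p = 0.917). IFIT5 in CM-Vector replicate 1 was 3.91 times the mean of the others of its group, and all 4 IFIT members were lowest in CM-MLKL replicate 2 among the CM-MLKL libraries. Summed over these 4, the level was 647.8, 327 and 736 CPM in the CM-MLKL libraries and 2908, 684 and 508 CPM in the CM-Vector libraries.

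**Figure D4:**
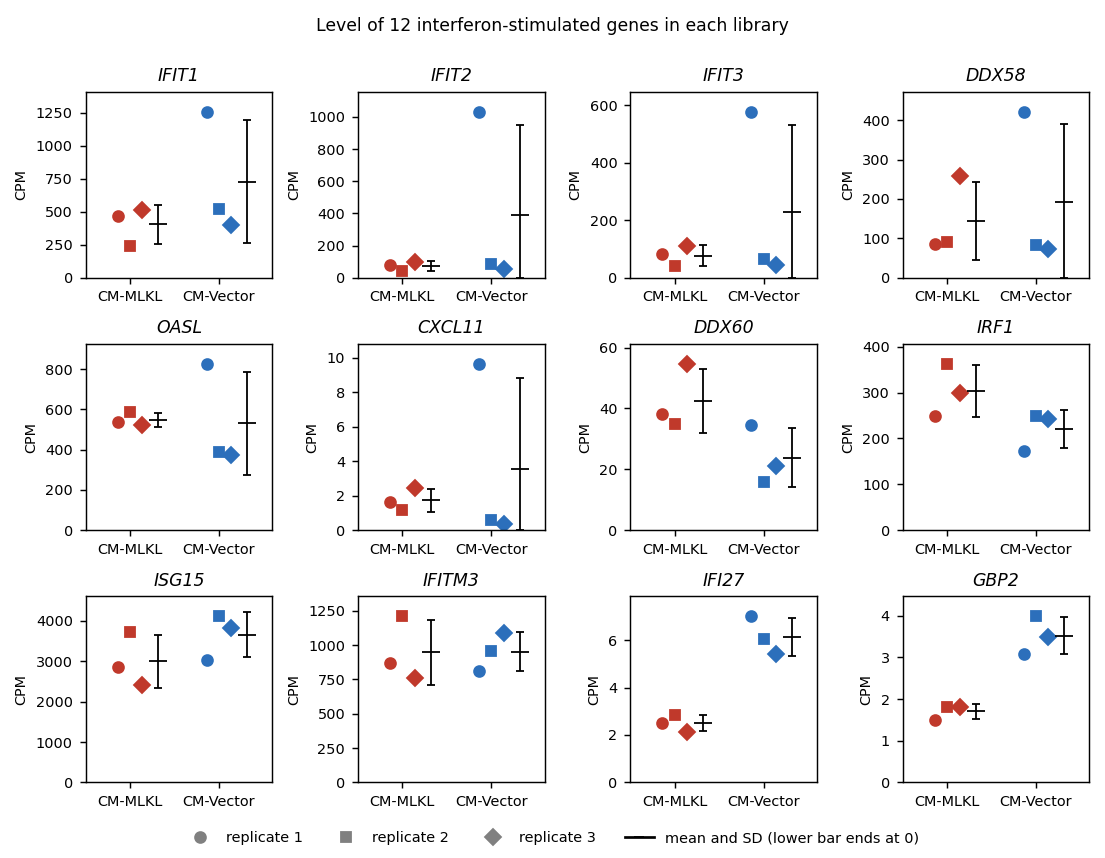
Level in CPM of 12 members in each library, CM-MLKL left and CM-Vector right, with replicates 1, 2 and 3 as circles, squares and diamonds and bars for the mean and SD of 3 libraries. CM-Vector replicate 1 is the highest point for IFIT1, IFIT2, IFIT3, DDX58, OASL and CXCL11, and the groups are apart in DDX60, IRF1, IFI27 and GBP2.

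Of the genes that restrict viral entry or trafficking, none was called in any fit. IFITM3, which blocks fusion of viruses in endosomes, was the second most abundant member per length and measured 866, 1209 and 763 CPM in the CM-MLKL libraries, against 810.1, 957 and 1091 CPM in the CM-Vector libraries. Values of both groups were interleaved, and the log2 fold change was -0.01 ± 0.26 (SE, edgeR adjusted p = 0.999). ISG20, an RNA exonuclease, measured 189, 288 and 198 CPM in the CM-MLKL libraries, against 278, 225 and 235 CPM in the CM-Vector libraries with the groups overlapping. RSAD2, which encodes viperin, gave 25.1, 21.4 and 30.9 CPM in CM-MLKL and 40.5, 16.8 and 13.7 CPM in CM-Vector libraries, with CM-Vector replicate 1 highest and a log2 fold change of 0.12 that was 0.79 without that library. BST2, which encodes tetherin, gave 6.14, 9.22 and 4.92 CPM in CM-MLKL and 5.04, 11.8 and 10.3 CPM in CM-Vector libraries, with CM-MLKL replicate 3 lowest and CM-Vector replicate 1 next to it. IFITM2 gave 36.8, 59.9 and 35.7 CPM in CM-MLKL and 30.3, 61.1 and 64.4 CPM in CM-Vector libraries and was lowest in CM-Vector replicate 1. MX1, a dynamin-like restriction factor, gave 6.49, 4.98 and 6.29 CPM in CM-MLKL and 7.98, 5.07 and 4.48 CPM in CM-Vector libraries, and MX2 and IFITM1 were below 2 CPM in every library. IFITM1, IFITM2 and IFITM3 are neighbouring close paralogs and reads may be split between them, and RSAD2 overlaps CMPK2 on the opposite strand.

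The ubiquitin-like modifier ISG15 had by far the highest level per length, a mean of 3532 CPM per kb of exon, followed by IFITM3 (704), OASL (153), IFIT1 (123) and IFI6 (85.3). ISG15 (chr1:1001138-1014540) measured 2861, 3711 and 2404 CPM in the CM-MLKL libraries, against 3035, 4107 and 3821 CPM in the CM-Vector libraries. The groups overlapped, since CM-MLKL replicate 2 was above CM-Vector replicate 1. Its log2 fold change was -0.29 ± 0.26 (SE, edgeR adjusted p = 0.999), and CM-Vector replicate 1 was the lowest library of its group. HERC5, the main ligase that attaches ISG15 to proteins, measured 71.9, 47.3 and 98.8 CPM in the CM-MLKL libraries, against 107, 82.5 and 72 CPM in the CM-Vector libraries, and USP18, which removes it and dampens receptor signalling, gave 27.2, 23.4 and 26.8 CPM in CM-MLKL and 33.1, 32.2 and 26.9 CPM in CM-Vector libraries.

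PARP9 and DTX3L form a complex of an ADP-ribosyltransferase and a ubiquitin ligase. Their genes share a head-to-head start, whose reads may not be assignable by strand. PARP9 gave 8.38, 4.24 and 11.9 CPM in CM-MLKL and 32.2, 9.3 and 6.69 CPM in CM-Vector libraries, and DTX3L gave 19.5, 15.5 and 17.8 CPM in CM-MLKL and 46.1, 11.7 and 14.1 CPM in CM-Vector libraries. PARP14, a related ADP-ribosyltransferase, measured 31.2, 22.6 and 53.8 CPM in the CM-MLKL libraries, against 95.8, 19.4 and 18.1 CPM in the CM-Vector libraries. TRIM21, the antibody receptor of the cytosol, measured 79.4, 68.5 and 60.9 CPM in the CM-MLKL libraries, against 151, 46.1 and 37.5 CPM in the CM-Vector libraries. In each of these 4 genes CM-Vector replicate 1 was over 3 times the mean of the other CM-Vector libraries. HERC6 was low in both groups, at 2.93, 2.36 and 2.79 CPM in CM-MLKL and 4.06, 3.08 and 1.6 CPM in CM-Vector libraries.

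Guanylate-binding proteins are GTPases that attack the membranes of intracellular microbes, and the 4 genes among the members lie on chromosome 1 between 89006666 and 89198932. GBP2 measured 1.49, 1.82 and 1.81 CPM in the CM-MLKL libraries, against 3.08, 3.98 and 3.5 CPM in the CM-Vector libraries. It was lower in every CM-MLKL library than in any CM-Vector library, CM-Vector replicate 1 included, with a log2 fold change of -1.04 ± 0.37 (SE, edgeR adjusted p = 0.526) and -1.10 ± 0.31 (SE, edgeR adjusted p = 0.11) without that replicate. GBP3 measured 5.17, 4.98 and 9.3 CPM in the CM-MLKL libraries, against 19.5, 3.5 and 3.87 CPM in the CM-Vector libraries, and GBP4 measured 12.5, 8.55 and 17.1 CPM in the CM-MLKL libraries, against 22.7, 6.88 and 7.31 CPM in the CM-Vector libraries. Both had CM-Vector replicate 1 highest and CM-Vector replicates 2 and 3 below all CM-MLKL libraries. Their log2 fold changes were -0.47 and 0.047 with all libraries and 0.84 and 0.87 without that one. GBP1 was too low to test, with 12, 0 and 5 counts in the CM-MLKL libraries, against 33, 1 and 3 in the CM-Vector libraries.

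The chemokines CXCL9, CXCL10 and CXCL11 draw T cells through the receptor CXCR3 and lie together on chromosome 4 between 76001275 and 76041415. CXCL11 measured 1.61, 1.14 and 2.46 CPM in the CM-MLKL libraries, against 9.64, 0.604 and 0.368 CPM in the CM-Vector libraries. The order was CM-Vector replicate 1, then the CM-MLKL libraries, then CM-Vector replicates 2 and 3, with a 19.8-fold excess of replicate 1 over its group. The log2 fold change was -1.03 ± 0.97 (SE, edgeR adjusted p = 0.999) with all libraries and 1.86 ± 0.52 (SE, edgeR adjusted p = 0.111) without that one. CXCL10 measured 0.804, 1.28 and 1.42 CPM in the CM-MLKL libraries, against 7.44, 1.57 and 0.491 CPM in the CM-Vector libraries, again with CM-Vector replicate 1 highest. CXCL9, which depends most on interferon gamma, had 0 counts in all 6 libraries, which allows up to 0.189 CPM in the shallowest.

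Among the remaining effectors, IFI27 had the smallest adjusted p. IFI27, a mitochondrial protein whose transcript is a blood marker of viral infection (chr14:94104836-94116698), measured 2.53, 2.83 and 2.13 CPM in the CM-MLKL libraries, against 7, 6.04 and 5.4 CPM in the CM-Vector libraries. Every CM-MLKL library was below every CM-Vector library. The means were 2.5 ± 0.348 CPM in the CM-MLKL libraries and 6.15 ± 0.802 CPM in the CM-Vector libraries (SD, n = 3 each), and the log2 fold change was -1.30 ± 0.34 (SE, edgeR adjusted p = 0.225) and -1.17 ± 0.28 (SE, edgeR adjusted p = 0.0696) without CM-Vector replicate 1. DESeq2 gave an adjusted p of 0.0473, and over all fits the adjusted p ran from 0.0473 to 0.917.

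IFI6, a relative of IFI27, gave 59.4, 67.4 and 63.3 CPM in CM-MLKL and 66.3, 92.5 and 93.7 CPM in CM-Vector libraries, with a log2 fold change of -0.41. SAMD9, a cytosolic restriction factor of poxviruses that was singled out here after its values were seen, measured 2.98, 4.51 and 9.79 CPM in the CM-MLKL libraries, against 33.1, 2.29 and 1.97 CPM in the CM-Vector libraries. CM-Vector replicate 1 was 15.6 times the other CM-Vector libraries, and CM-MLKL replicate 3 was the next highest. The log2 fold change was -1.12 ± 0.93 (SE, edgeR adjusted p = 0.999), and 1.46 ± 0.48 (SE, edgeR adjusted p = 0.172) without CM-Vector replicate 1. IFI44 measured 107, 75.6 and 129 CPM in the CM-MLKL libraries, against 156, 73.6 and 58.7 CPM in the CM-Vector libraries, with all CM-MLKL libraries above CM-Vector replicates 2 and 3 and below replicate 1. IFI35, a partner of NMI, overlapped between the groups at 76, 72.6 and 66.4 CPM in CM-MLKL and 90.7, 69.5 and 68.5 CPM in CM-Vector libraries, and SP100, a nuclear body protein, gave 48.7, 32.4 and 61 CPM in CM-MLKL and 41.2, 40.0 and 32.4 CPM in CM-Vector libraries.

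The untested members were at a few counts. IFI16, a nuclear DNA sensor, had 3, 0 and 18 counts in the CM-MLKL libraries, against 47, 2 and 5 in the CM-Vector libraries. XAF1, a promoter of apoptosis, had 1, 1 and 10 counts in the CM-MLKL libraries, against 25, 2 and 4 in the CM-Vector libraries. TRIM22 had 3, 3 and 7 counts in the CM-MLKL libraries, against 16, 5 and 6 in the CM-Vector libraries, and IFI44L had 2, 2 and 12 counts in the CM-MLKL libraries, against 17, 4 and 6 in the CM-Vector libraries. In these 4 and in GBP1, CM-Vector replicate 1 had the most counts. That library also had the most genes with a count over the whole table (21805, against 19458 to 20875). The share of all untested genes that were highest in it is not given here.

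Within the CM-MLKL group, the shares of members with a given library highest or lowest were near those of all genes. CM-MLKL replicate 3 was the highest CM-MLKL library in 20 of 43 members (46.5%, against 38.1% of genes), and CM-MLKL replicate 2 was the lowest in 23 (53.5%, against 45.1%). Across the 43 members, the excess of CM-Vector replicate 1 over its group had a Pearson's r of 0.62 (Spearman's rho 0.65) with the excess of CM-MLKL replicate 3 over its group, against 0.25 (rho 0.29) across all 14046 genes. These values describe the libraries, since members share each library's depth and composition.

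CM-Vector replicate 1 also differed from its group by base composition and length. Its excess over CM-Vector replicates 2 and 3 had an r of -0.40 with the GC content of the transcript across 14017 genes and -0.72 across the 43 members, and an r of 0.33 and 0.37 with the log2 transcript length. The members had a median GC content of 46.3%, against 49% over all genes. A smooth trend on GC and length, fitted over all genes, left 18 of the 43 members (41.9%, against 10.2% of genes) at least 2-fold above it in that library. The median excess beyond the trend was 0.77 on the log2 scale over the members and -0.016 over all genes. It was 3.81 for CXCL11, 3.51 for IFIT2, 3.26 for IFIT3, 3.04 for SAMD9, 2.14 for TRIM21 and 1.86 for DDX58. For DDX60 it was 0.17. With these trends as offsets, edgeR called no member in either direction, with adjusted p of 0.0627 for DDX60 and 0.0858 for IFI27. The share of all genes called with these offsets is not given here, so that count has no background beside it.

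**Figure D5:**
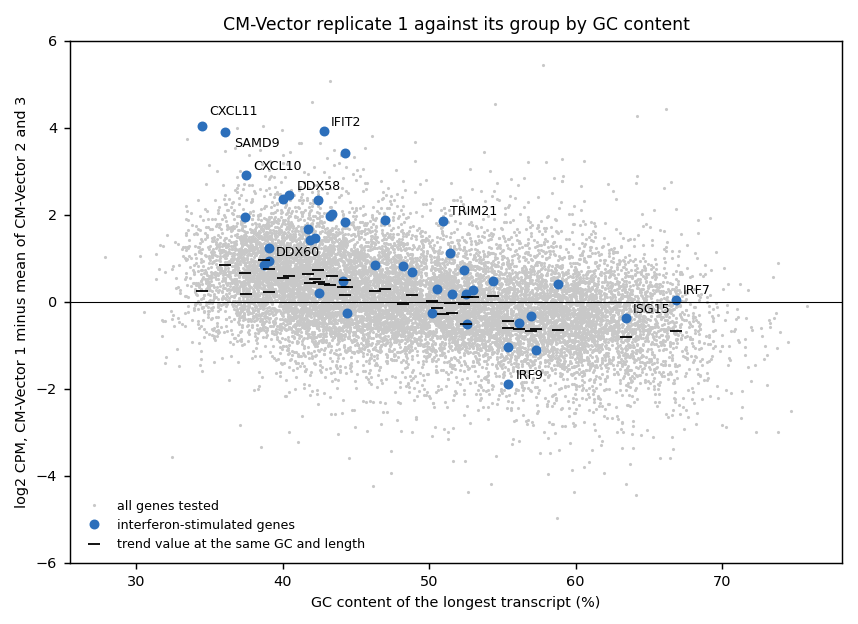
Log2 CPM of CM-Vector replicate 1 minus the mean of CM-Vector replicates 2 and 3, against the GC content of the longest transcript, for all genes tested (grey) and the members (blue), with the trend value of each member as a black dash. Of the 43 members, 18 lie at least 2-fold above their dash.

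Genes that make or relay interferon were taken from 5 lists with 43 genes, of which 32 were tested. edgeR called 0 of them in either direction, against 0.406% of all genes higher and 0.107% lower, and DESeq2 and limma-voom also called 0. At an unadjusted p under 0.05 IRF5 and SOCS1 were higher (2 of 32, against 3.24% of genes) and IFNB1 was lower (1 of 32, against 2.98%). Without CM-Vector replicate 1, 2 of the 32 were called higher, IFNL1 and IKBKE, against 1.44% of genes, and 0 lower, against 0.755%. At an unadjusted p under 0.05 that fit had 7 of 32 higher, against 8.08% of genes, which were IFNL1, JAK1, IRF5, MYD88, IKBKE, SOCS1 and PIAS1, and 1 lower, STAT3, against 6.94%.

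Of 11 interferon ligands listed, 4 were tested, and all 4 were highest in CM-Vector replicate 1, as were 32.4% of all genes tested. IFNB1, interferon beta, which was singled out after its values were seen, had 10, 11 and 11 counts in the CM-MLKL libraries, against 234, 7 and 5 in the CM-Vector libraries. CM-Vector replicate 1 held most of its reads, at 31.4 times the level of the other CM-Vector libraries. Its log2 fold change was -2.67 ± 1.14 (SE, edgeR adjusted p = 0.744), and 0.82 ± 0.57 (SE, edgeR adjusted p = 0.557) without that library. With no filter it was called lower, at an edgeR adjusted p of 0.000169, and over all fits its adjusted p ran from 0.000169 to 1.

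The lambda interferons act mainly on epithelial cells. IFNL1 measured 41.6, 62.5 and 55.1 CPM in the CM-MLKL libraries, against 161, 22.4 and 22.2 CPM in the CM-Vector libraries. The CM-MLKL libraries lay between CM-Vector replicate 1 and the other CM-Vector libraries. The log2 fold change was -0.37 ± 0.65 (SE, edgeR adjusted p = 0.999), and 1.28 ± 0.25 (SE, edgeR adjusted p = 0.03) without CM-Vector replicate 1. IFNL3 gave 7.35, 8.08 and 11.3 CPM in CM-MLKL and 30.8, 6.82 and 7.31 CPM in CM-Vector libraries, and IFNL2, which is nearly identical to it in sequence, gave 7.63, 9.62 and 13.6 CPM in CM-MLKL and 25.6, 7.91 and 6.88 CPM in CM-Vector libraries. IFNA1, IFNA2, IFNA8 and IFNK were at 0 in all libraries, and IFNG had 1 count in all.

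Receptor and signalling genes were detected in every library. IFNGR2, a chain of the interferon gamma receptor, gave 233, 217 and 269 CPM in CM-MLKL and 178, 228 and 229.9 CPM in CM-Vector libraries, and IFNGR1 gave 34.3, 21.5 and 40.4 CPM in CM-MLKL and 52.6, 31.6 and 30.1 CPM in CM-Vector libraries. IFNLR1, the specific chain for lambda interferons, was low, at 1.72, 2.29 and 1.75 CPM in CM-MLKL and 1.71, 2.54 and 1.9 CPM in CM-Vector libraries. JAK1, a kinase bound to the receptors, gave 119, 100.2 and 115 CPM in CM-MLKL and 111, 64.7 and 70.0 CPM in CM-Vector libraries. STAT3 measured 161, 157 and 163 CPM in CM-MLKL and 141, 203 and 251 CPM in CM-Vector libraries, and IRF3, the factor that switches on interferon beta, 99.9, 126 and 83.6 CPM in CM-MLKL and 97.5, 123 and 139 CPM in CM-Vector libraries. None of these was called in the fit of all libraries or without CM-Vector replicate 1.

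Upstream of interferon, IKBKE, a kinase that activates IRF3, measured 20.4, 24.2 and 20.7 CPM in the CM-MLKL libraries, against 36.7, 9.54 and 10.2 CPM in the CM-Vector libraries. It repeated the order of IFNL1, with a log2 fold change of 0.21 ± 0.47 (SE, edgeR adjusted p = 0.999) and 1.17 ± 0.23 (SE, edgeR adjusted p = 0.0324) without CM-Vector replicate 1. MAVS, the adaptor of RIG-I and MDA5, gave 49.8, 68.5 and 51.1 CPM in CM-MLKL and 97.2, 40.1 and 43.7 CPM in CM-Vector libraries, and TICAM1, the adaptor of TLR3, gave 52.7, 92.4 and 39.8 CPM in CM-MLKL and 49.9, 45.8 and 50.7 CPM in CM-Vector libraries. CGAS, the DNA sensor, overlapped between the groups at 27.8, 26.1 and 39.5 CPM in CM-MLKL and 38.6, 32.5 and 36.6 CPM in CM-Vector libraries. Of the negative regulators, SOCS3 gave 49, 63.5 and 43.7 CPM in CM-MLKL and 59.1, 57.3 and 64.9 CPM in CM-Vector libraries, PTPN1 46, 51.2 and 40.6 CPM in CM-MLKL and 56.9, 41.3 and 40.8 CPM in CM-Vector libraries and SOCS1 8.61, 14.5 and 7.6 CPM in CM-MLKL and 3.03, 4.95 and 5.53 CPM in CM-Vector libraries. Each CM-MLKL value of SOCS1 was above each CM-Vector value, with a log2 fold change of 1.19 ± 0.38 (SE, edgeR adjusted p = 0.419).

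A further 41 interferon-induced genes outside the members were listed, of which 36 were tested. With all libraries edgeR called 0 in either direction, against 0.406% of all genes higher and 0.107% lower, as did DESeq2 and limma-voom. At an unadjusted p under 0.05, 0 were higher, against 3.24% of genes, and LAMP3 alone was lower (1 of 36, against 2.98%). Without CM-Vector replicate 1 edgeR also called 0, against 1.44% of genes higher and 0.755% lower. At an unadjusted p under 0.05 that fit had 6 higher, against 8.08% of genes, which were BATF2, CMPK2, PARP12, TDRD7, ZNFX1 and NLRC5, and 2 lower, LAMP3 and LY6E, against 6.94%. Fold changes were above 0 in 13 of the 36 with all libraries, against 44.5% of genes, and in 28 without CM-Vector replicate 1, against 54.9%. CM-Vector replicate 1 was the highest library in 23 of the 36, against 32.4% of genes, and at least 2-fold above its group in 13, against 16%. The most abundant, LY6E and LGALS3BP, gave 261, 382 and 216 CPM in CM-MLKL and 230.3, 519.8 and 484 CPM in CM-Vector libraries and 178, 293 and 163 CPM in CM-MLKL and 126, 163 and 186 CPM in CM-Vector libraries, with overlapping groups in both.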

How the data were processed

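Polyadenylated RNA was sequenced from 3 CM-MLKL and 3 CM-Vector libraries of wild-type PANC-1. The methods say that the authors used oligo(dT) beads, a NEBNext Ultra RNA kit, an Illumina NovaSeq instrument, fastp and StringTie. They state no step that marks strand. Aligner, build and counting tool: not given in the sources used here. Deposited by the authors was a table of raw read counts per gene, with no normalisation. Groups came from the labels. Gene names were matched to GENCODE 29 on GRCh38 for coordinates, GC content and length, and 27 names that a spreadsheet had turned into dates (0.155% of counts) were kept in totals but not named.

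Counts were analysed in R 4.3.3 with edgeR 4.0.16. Genes passing filterByExpr (minimum count 10, minimum total 15) numbered 14046. Library sizes were scaled by TMM, and groups were compared by the quasi-likelihood test, two-sided, with Benjamini-Hochberg adjustment over all genes tested and a threshold of 0.05. SEs were the absolute log2 fold change divided by the square root of F. Levels are TMM-scaled CPM, and per-length levels divide by exon length. The trend of CM-Vector replicate 1 on GC and length was fitted with mgcv 1.9.3. The script was also tested on simulated data. Alternatives were DESeq2 size factors, library size only, DESeq2 1.42.0, limma-voom 3.58.1, other filters, each library left out, the replicate number as a block and, chosen after seeing the data, GC and length offsets.

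The members and all gene lists were chosen with earlier results of these data known. Values in every library were required for members past the threshold in any fit, for the 2 members with the highest level in each of 8 role groups and for members whose groups did not overlap. For the pathway and other lists the rule took genes past the threshold with or without CM-Vector replicate 1, and otherwise the 2 with the highest level. All other genes given with values were added after their values were seen. The values of 1 gene that the lists count are not reported here. Promoters are from RefSeq (GRCh38.p14).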

Additional observations from a re-analysis of the deposited data

How the results depend on the processing

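Over 14 alternatives, 13 of them planned, 35 single genes gave 483 values, of which 425 kept direction and side of the threshold, 52 turned direction, of which IFNL1 without CM-Vector replicate 1 also passed the threshold, and a further 6 passed it without turning. Counts of members called higher and lower were 0 and 0 in all but 3 alternatives: 1 higher without CM-Vector replicate 1, 1 lower with the DESeq2 test and 2 lower with no filter on low counts. DESeq2 set no adjusted p for IFIT2, CXCL11 and IFNB1. For pathway genes the count was 0 except as follows. With no filter it was 1 of 39, IFNB1, called lower, against 0.376% of genes. Without CM-Vector replicate 1 it was 2 of 32, IFNL1 and IKBKE, called higher, against 1.44%. With GC and length offsets it was 1 of 32, SOCS1, and the share of all genes in that fit is not given here. Leaving out each library in turn moved the count of members called higher between 0 and 1, the pathway count between 0 and 2, and the members' median log2 fold change between -0.32 and 0.25, the highest without CM-Vector replicate 1. Over all genes, 57 were called higher and 15 lower, against 206 and 108 without CM-Vector replicate 1, 140 and 67 with DESeq2 and 149 and 100 with no filter.

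Log2 fold changes of single genes turned as follows, with the cause not tested. With library size only, OASL was -0.035 and GBP4 -0.047. IFITM3 was 0.0094 with DESeq2 size factors and with the DESeq2 test, 0.0049 with no filter and 0.0072 with GC and length offsets, and PTPN1 was 0.00825, 0.00802 and 0.00522 in the first 3 of these. With limma-voom CXCL11 was 0.25, IFNL1 0.25 and MAVS 0.00297. Leaving out each library in turn gave -0.34 to 0.12 for IRF7, -1.13 to 0.92 for DDX58, -0.15 to 0.55 for OASL, -2.93 to 0.093 for IFIT2, -2.06 to 0.51 for IFIT3, -0.22 to 0.13 for IFITM3, -0.34 to 0.0021 for ISG20, -0.84 to 0.84 for GBP3, -0.23 to 0.87 for GBP4, -1.94 to 0.20 for CXCL10, -1.55 to 1.86 for CXCL11, -0.16 to 0.085 for IFI35 and -0.14 to 0.68 for IFI44. Among pathway genes it gave -0.79 to 1.28 for IFNL1, -1.09 to 0.36 for IFNL3, -0.45 to 0.083 for IFNGR1, -0.098 to 1.17 for IKBKE, -0.31 to 0.46 for MAVS, -0.074 to 0.58 for TICAM1, -0.095 to 0.19 for PTPN1 and -3.21 to 0.82 for IFNB1.

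The groups share replicate numbers. Deviations of same-numbered libraries from their group means had an r of 0.17, 0.17 and -0.31 for numbers 1, 2 and 3. CM-MLKL replicate 2 correlated most with CM-Vector replicate 3 (0.36). Deviations within a group of 3 depend on each other, so these values cannot settle whether libraries were paired. The numbers were not treated as pairs in the main fit. With the replicate block 0 members were called in either direction and their median log2 fold change was -0.073, and CXCL11 was 0.19, IFNL1 0.37 and MAVS 0.016. The share of all genes called with that block is not given here. With 3 libraries a group and 1 of them standing apart, the median SE of a member was 0.40 on the log2 scale. Differences well above that size were also not called, such as -1.30 for IFI27 and -2.42 for IFIT2 (edgeR adjusted p = 0.225 and 0.603). The SE of IFIT2 itself was larger than that median, with CM-Vector replicate 1 far above the other libraries. Members at a few CPM rest on few counts a library.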

Other observations

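Some genes of the list of other interferon-induced genes, picked here after their values were seen, showed the same high value in CM-Vector replicate 1. TRIM25, the ligase that activates RIG-I, measured 33.3, 37.6 and 33.3 CPM in the CM-MLKL libraries, against 111, 28.3 and 25.6 CPM in the CM-Vector libraries. ZNFX1, a helicase that senses viral RNA at mitochondria, measured 61.6, 39.4 and 53.7 CPM in the CM-MLKL libraries, against 165, 30.7 and 34.1 CPM in the CM-Vector libraries. SAMD9L, the neighbour and paralog of SAMD9, measured 0.631, 0.337 and 1.37 CPM in the CM-MLKL libraries, against 4.36, 0.543 and 0.123 CPM in the CM-Vector libraries. In each, CM-Vector replicate 1 was highest, at 4.11, 5.09 and 13.1 times the other CM-Vector libraries. LAMP3, a lysosomal membrane protein, went the way of GBP2 and IFI27, with 1.72, 2.76 and 2.57 CPM in the CM-MLKL libraries, against 4.7, 5.49 and 4.54 CPM in the CM-Vector libraries and a log2 fold change of -1.06 ± 0.36 (SE, edgeR adjusted p = 0.482).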
